A study of Mus musculus with 10 samples.

Results

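The genes described here encode the enzymes of glycolysis and gluconeogenesis, the pentose phosphate pathway and glycogen metabolism, with the transcription factor gene Hif1a as a regulator. They were taken from a list of 39 symbols, and a gene was a member when its symbol was found in each of the 4 comparison tables deposited for the experiment. Of the 39 symbols, 38 were found among 13091 genes, 21 in glycolysis and gluconeogenesis, 8 in the pentose phosphate pathway and 8 in glycogen metabolism, besides Hif1a. The lactate dehydrogenase gene Ldhb was the symbol not found.

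The neutrophils were matured in culture from bone marrow progenitors of strain 129-SVEV that had been immortalized with a HoxB8 fusion which is active only while estrogen is supplied, and the methods describe the lines as grown from single sorted cells. PolyA RNA was sequenced from unstimulated cells and from cells after 1 h with 25 ng/mL lipopolysaccharide (LPS), a bacterial cell wall component. The labels give 2 Vim+/+ and 3 Vim-/- biological replicates per treatment, 10 libraries in 4 groups, and do not say whether each replicate is a line of its own. The Vim+/+ replicates are numbered 1 and 3 in both treatments, and a replicate 2 of that genotype is not among the libraries. The labels give the genotype of the Vim-/- cells as "Vimentin KD", whereas the methods derive them from mice without the gene. All groups carry the HoxB8 transgene.

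The tables hold, for each gene, a mean normalized count over all libraries (baseMean), a log2 fold change between 2 groups, its standard error (SE) and an adjusted p-value, and no value for a single library. The level of a member in each replicate and the depth of each library are therefore unknown, and overlap between groups cannot be read. In every sentence on the genotypes a fold change is Vim-/- over Vim+/+, so that a negative log2 value is a lower RNA level in Vim-/- neutrophils, and a gene passed when its adjusted p in the deposited table was under 0.05. These p-values come from the authors' model, fitted over the 10 libraries together with 4 covariates for unwanted variation. They therefore rest on a spread estimated by that model after the covariates, and not on the 2 and 3 replicates compared alone. With 4 groups and 4 covariates for 10 libraries, little is left from which to estimate that spread. The replicates are labelled biological but may be repeats of the same line. A difference between genotypes cannot be told apart from one between the particular lines. Since RNA was taken from whole cultures, fewer cells of a type and less RNA per cell cannot be told apart either.

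Glycolysis splits glucose to pyruvate, yielding a little ATP without oxygen, and neutrophils are known to depend on it for movement and for the engulfment of microbes. The pentose phosphate pathway branches off at glucose 6-phosphate and returns NADPH, which the oxidase of the neutrophil membrane spends on making superoxide. Glycogen is the glucose store that neutrophils carry into tissue where the sugar is scarce.

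The targeted gene checked the direction of the labels: Vim had a log2 fold change of -13.56 (SE 0.335) in unstimulated and of -12.44 (SE 0.243) in LPS-treated cells. All 13 neutrophil markers examined were present, among them Ly6g and S100a8, with baseMean values from 11373 upwards. Some markers of other cells had high counts too. The values ran from 1075 to 121760 for immature myeloid markers and from 65.6 to 268319 for those of eosinophils, basophils or mast cells. The highest values on the macrophage, lymphocyte and erythroid or platelet lists were 10073, 949 and 6521. In unstimulated Vim-/- cells 6 of the 13 neutrophil markers were higher (Itgam, Mmp8, Cxcr2, Camp, Ngp and Lcn2). After LPS 2 of the 13 were higher, and their log2 fold changes ran from -0.33 to 1.16. Of 9 markers of immature myeloid cells or cycling progenitors, Cd34, Prtn3 and Ctsg were lower in Vim-/- cells in both states and the proliferation genes Mki67 and Top2a were higher. The macrophage markers Adgre1 and Csf1r were lower in both states, and Mertk, C1qa and C1qb were not in the tables. Of 5 markers of eosinophils, basophils or mast cells in the tables, 1 passed in each state, Cpa3, which was lower, and the log2 fold changes of the list ran from -1.70 to 0.67 unstimulated and from -0.96 to 1.01 after LPS. Of 2 lymphocyte markers 1 was lower unstimulated and 2 after LPS, Nkg7 in both. Of 2 erythroid or platelet markers Itga2b was lower in both states, and Pf4 was at 0.36 and 1.27 and did not pass. Cd3e, Ms4a1, Klf1 and Hba-a1 were not in the tables. Over all genes, 12.4% passed as higher and 6.03% as lower in unstimulated Vim-/- cells, and 6.55% and 4.27% after LPS. The part of these marker differences in the results below was not tested.

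Most of these genes were strongly expressed. The median baseMean of the members was 12588 normalized counts, against 907 over all genes, and 22 of the 38 members were in the top 10% of all genes. To compare levels between genes, baseMean was divided by the length of the longest transcript, in kilobases. On this scale Aldoa, which splits fructose 1,6-bisphosphate into triose phosphates, was the highest member at 90708 normalized counts per kilobase. It was followed by Pkm, whose pyruvate kinase makes the last ATP of the pathway, at 81096 and by the dehydrogenase gene Gapdh at 42732. Gpi1, which turns glucose 6-phosphate into fructose 6-phosphate, was at 37328, the pentose phosphate gene Tkt at 34377 and the glycogen phosphorylase gene Pygl at 33017. The 3 pathways thus each had a member among the 6 highest, and the brain aldolase gene Aldoc was the lowest member at 11.2 normalized counts per kilobase. With the principal transcript of each gene in place of the longest, Gapdh at 98975 came before Pkm, and each pathway still had a member among the 6 highest.

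**Figure D1:**
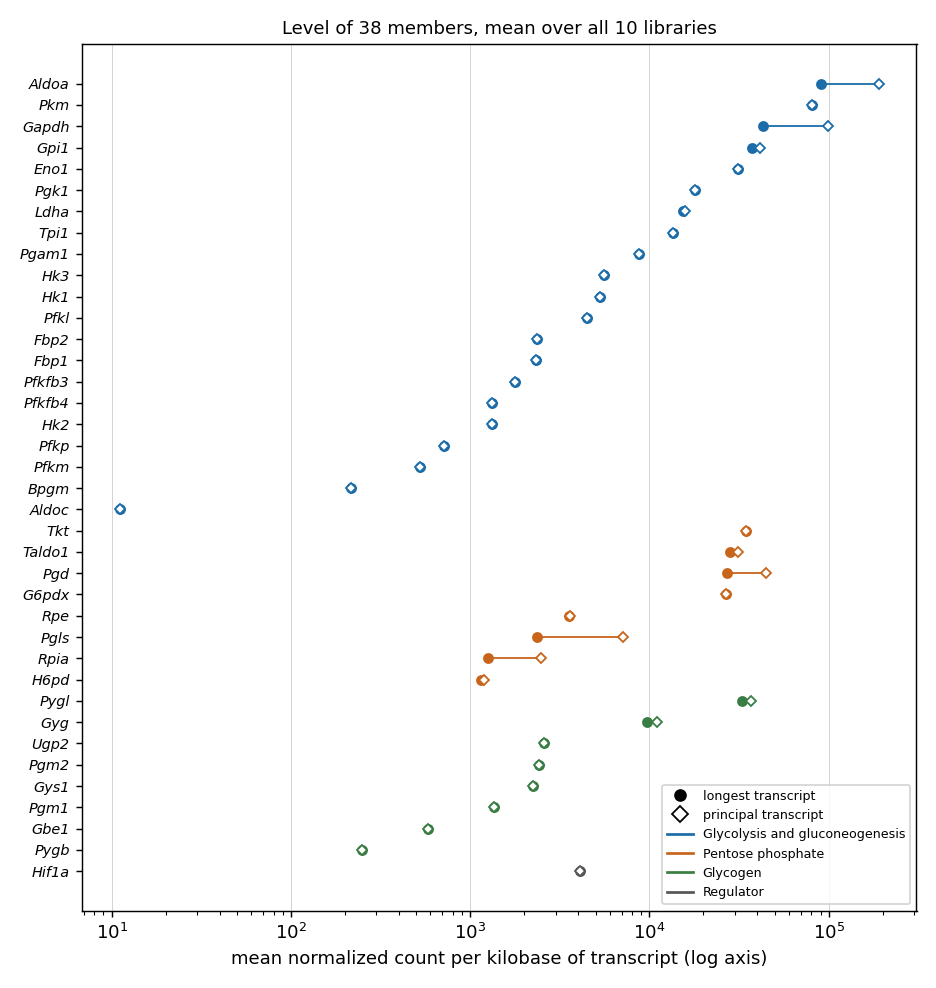
Mean normalized count per kilobase of transcript (log axis) of the 38 members by pathway, as the mean over all 10 libraries, with filled circles for the longest and open diamonds for the principal transcript of each gene. Aldoa at 90708 and Pkm at 81096 lie at the high end and Aldoc at 11.2 at the low end.

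The levels of isoenzyme genes were far apart in some steps and close in others. The liver type phosphofructokinase gene Pfkl was 6.30 times as high per kilobase as the platelet type Pfkp and 8.56 times as high as the muscle type Pfkm. The liver type glycogen phosphorylase gene Pygl was 132 times as high as the brain type Pygb, and cytosolic G6pdx was 23.2 times as high as H6pd, its counterpart in the endoplasmic reticulum. Among the hexokinase genes, Hk1 and Hk3 were at 0.953 to 1, and Hk3 was 4.23 times as high as Hk2. Pfkp was 1.36 times as high as Pfkm and the row listed as Pgm2 1.78 times as high as Pgm1. These ratios are of means over all libraries of both genotypes, so they have no spread over replicates, and where the genes of a pair differed unequally between genotypes the pooled ratio need not hold in either. That is so for Fbp1 over Fbp2, with a pooled ratio of 0.984, for Pfkfb3 over Pfkfb4, with 1.34, and for the rows listed as Pgm2 over Pgm1. The genotype differences of these genes are given further on. With the length of the principal transcript each of the 12 pooled orders examined was the same, and orders within a genotype were not examined.

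In unstimulated neutrophils, glycolysis was the pathway with the most members that differed between genotypes, and nearly all of them were lower in Vim-/- cells. Of its 21 genes, 10 were lower, 1 was higher and 10 did not pass. Only 1 of 8 pentose phosphate genes (Taldo1) and 2 of 8 glycogen genes (Gyg and Pgm2) passed, all lower, and Hif1a did not. In total 13 of 38 members were lower and 1 was higher, in a comparison in which 6.03% of all genes passed as lower, 12.4% as higher and 18.4% in either direction. Since high counts make small differences easier to call, the share was also taken among the 818 genes with a baseMean at or above the median of the members. Of these, which include the higher members themselves, 37.7% passed in either direction, close to the members' 14 of 38 (36.8%), and 21.1% passed as lower. At an unadjusted p under 0.05 there were 18 members, against 29.5% of all genes. The median log2 fold change was -0.49 for glycolysis, 0.01 for the pentose phosphate pathway and -0.11 for glycogen, against 0.06 over the 10321 genes whose baseMean reached 100.

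**Figure D2:**
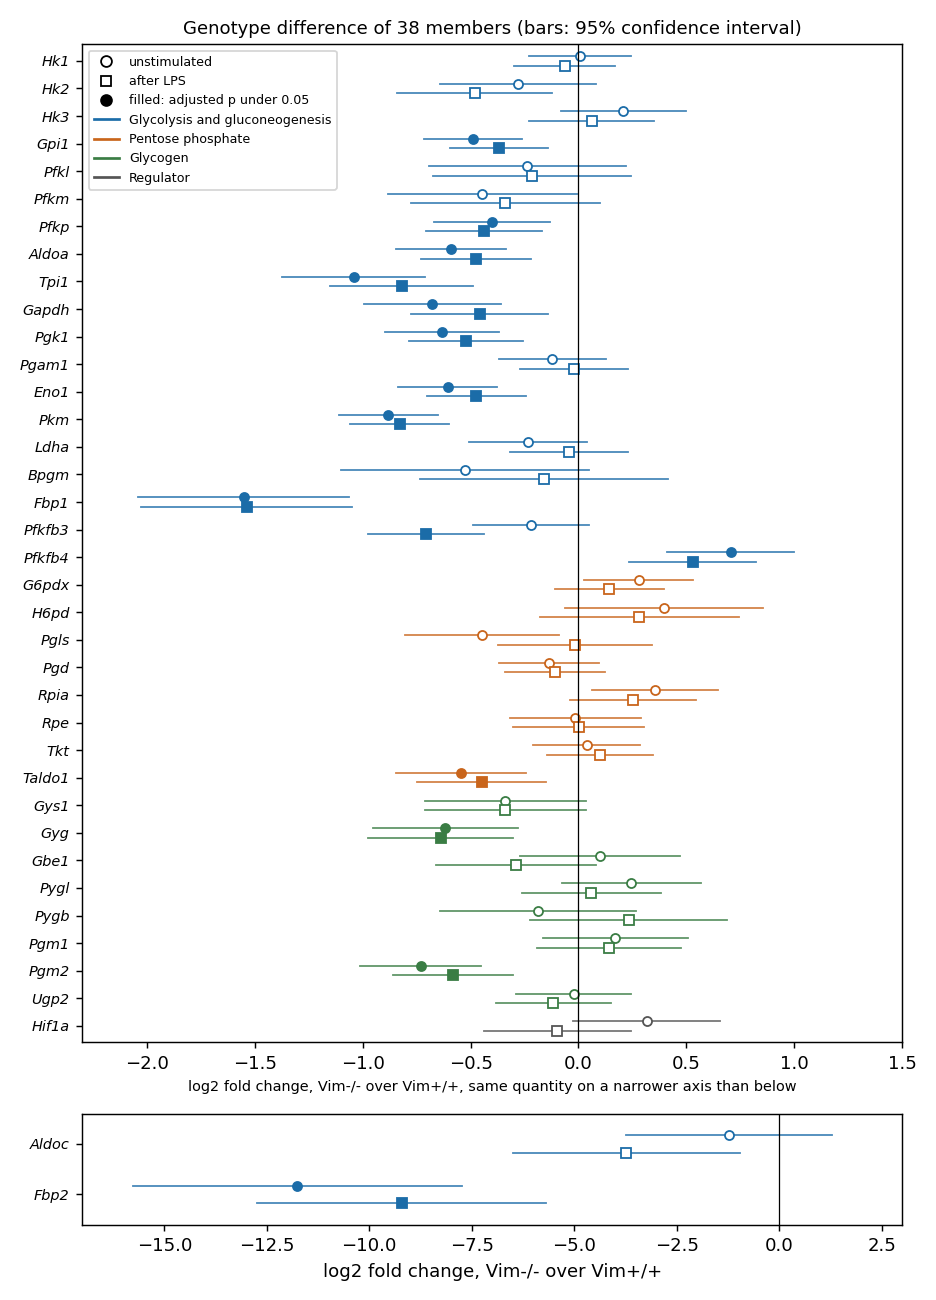
Log2 fold change of Vim-/- over Vim+/+ for each member, unstimulated (circles) and after LPS (squares), with 95% confidence intervals as bars; symbols are filled where the adjusted p was under 0.05. Filled symbols lie left of 0 for all that passed but Pfkfb4 at 0.71 and 0.53, and the lower panel shows Aldoc and Fbp2 on a wider axis.

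The lower part of glycolysis, from triose phosphate to pyruvate, had 5 of its 6 genes lower in unstimulated Vim-/- neutrophils, where 6.03% of all genes and 21.1% of those with high counts were lower. With the test statistics rescaled over all genes, as described further on, only Tpi1 and Pkm of these 6 passed. Tpi1, whose triose phosphate isomerase lets both products of the aldolase step go on to pyruvate, had the largest fold among them. Its log2 fold change was -1.04 (SE 0.169, adjusted p = 4.44e-08), that is 2.06-fold lower with a 95% confidence interval from 1.64 to 2.59. Pkm was lower by a log2 fold change of -0.88 (SE 0.117, adjusted p = 5.83e-12), which put its RNA at 54.3% of the Vim+/+ level. Its gene, on chromosome 9 from 59656576 to 59679372 of GRCm38.p6, had the smallest adjusted p of all members. Gapdh, which makes the NADH of the pathway, was lower at -0.68 (SE 0.163, adjusted p = 0.000542). Pgk1, the kinase of the first step that yields ATP, was lower at -0.63 (SE 0.135, adjusted p = 6.87e-05). Eno1, whose enolase makes phosphoenolpyruvate, was lower at -0.61 (SE 0.117, adjusted p = 8.34e-06). The sixth gene, the phosphoglycerate mutase gene Pgam1, had a log2 fold change of -0.12 with an interval from -0.37 to 0.13 and did not pass. The 5 genes that passed were thus at 48.5% to 65.7% of their Vim+/+ level, and that of Pgam1 was at 91.9%.

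Eno1 and Tpi1 carry limits of their own. A near-identical copy of Eno1 is listed as Eno1b, and its log2 fold change of -0.68 was similar, so reads of the copies may have been split between them. Tpi1 overlaps Spsb2, and Gapdh and Pgk1 have processed copies elsewhere in the genome, while neither the annotation nor the strand setting of the counting is given in the sources used here.

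Among the genes of the hexose steps, 3 of 9 were lower, where 6.03% of all genes and 21.1% of those with high counts were lower. Aldoa was lower at -0.59 (SE 0.129, adjusted p = 0.000118), a call that was lost when the fold changes were centred on genes of like principal transcript length (-0.23, adjusted p = 0.264). Gpi1 was lower at -0.49 (SE 0.116, adjusted p = 0.000462). Pfkp was lower at -0.40 (SE 0.137, adjusted p = 0.0238), and it overlaps Pitrm1. Of the other phosphofructokinase genes, Pfkl, the one with the highest level, had a log2 fold change of -0.24 (SE 0.234, adjusted p = 0.535), and Pfkm had -0.45 with an unadjusted p of 0.046 and an adjusted p of 0.157. The hexokinases, which trap glucose in the cell as its 6-phosphate, did not pass. Hk1 was at 0.01 with an interval from -0.23 to 0.24, Hk2 at -0.28 (SE 0.184, adjusted p = 0.308) and Hk3 at 0.21 (SE 0.148, adjusted p = 0.358). For Aldoc the low count left an interval from -3.73 to 1.30, that is from 7.56% to 246% of the Vim+/+ level.

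At the ends of the pathway, Ldha, which turns pyruvate into lactate, had a log2 fold change of -0.23 (SE 0.139, adjusted p = 0.251), and its interval from -0.51 to 0.04 leaves room for a level down to 70.3% of that in Vim+/+ cells. Bpgm, which makes 2,3-bisphosphoglycerate, was at -0.52 with an interval from -1.10 to 0.05 and did not pass.

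Of the regulatory enzymes around phosphofructokinase, 1 of 2 passed in unstimulated cells. Pfkfb3 and Pfkfb4 encode bifunctional enzymes that make and break fructose 2,6-bisphosphate, the activator of phosphofructokinase. Pfkfb4 was the only member that was higher in Vim-/- cells, with a log2 fold change of 0.71 (SE 0.15, adjusted p = 7.18e-05), 1.63-fold with an interval from 1.33 to 2.0. Pfkfb3 was at -0.22 (SE 0.137, adjusted p = 0.279) and did not pass in unstimulated cells.

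Fructose bisphosphatase, which runs the phosphofructokinase step backwards, is encoded by Fbp1 and Fbp2, and both were lower in Vim-/- cells. Fbp1 had a log2 fold change of -1.55 (SE 0.25, adjusted p = 3.31e-08), 2.93-fold lower with an interval from 2.09 to 4.12. For Fbp2 the table lists -11.76 (SE 2.05, adjusted p = 4.78e-07). A fitted value of this size depends on how the model treats counts at or near 0, so it is not read as a fold. The LPS response of Fbp2 within Vim+/+ cells also had a wide interval, from -2.85 to 4.15. With the rescaled statistics, described further on, the unstimulated call of Fbp2 was lost (adjusted p = 0.0645). The pair lie next to each other on chromosome 13 of GRCm38.p6, Fbp2 from 62836884 to 62858400 and Fbp1 from 62864753 to 62888298, with 6352 bases between them. Of the 13 other listed genes within 1 Mb, 3 passed in unstimulated cells, where 18.4% of all genes did. Gm38639 was lower at -2.55, and Zfp808 and Ptch1 were higher at 3.76 and 1.18. After LPS 2 of the 13 passed, Gm38639 and Ptch1, where 10.8% of all genes did. Fbp1 overlaps the low-count gene Gm38679, which had a log2 fold change of -0.69 and did not pass.

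**Figure D3:**
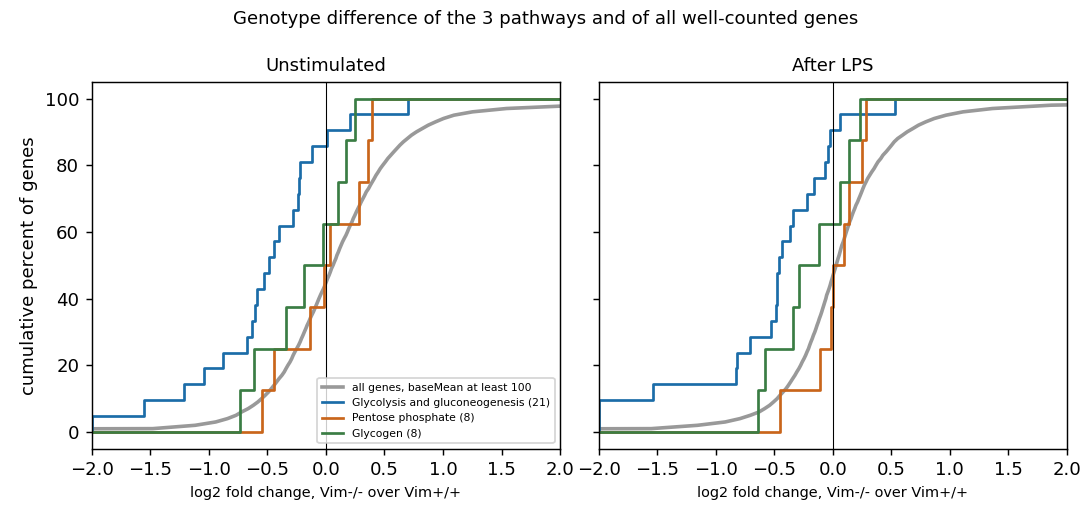
Cumulative percent of genes (vertical axis) by log2 fold change of Vim-/- over Vim+/+ (horizontal axis), unstimulated and after LPS, for each pathway and for the 10321 genes whose baseMean reached 100; values beyond -2 are drawn at -2. Below 0 the line for glycolysis lies left of the others, with medians of -0.49 and -0.46, and the medians for the pentose phosphate pathway are at 0.01 and 0.05.

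In the pentose phosphate pathway, the oxidative branch that returns NADPH had no member that passed in unstimulated cells. G6pdx, the committed step, had a log2 fold change of 0.28 (SE 0.128, adjusted p = 0.115), so that its interval from 0.03 to 0.53 lay above 0 while the adjusted p missed the threshold. H6pd was at 0.40 with an interval from -0.06 to 0.86. Pgls, which opens the lactone made by G6pdx, was at -0.45 with an unadjusted p of 0.0139 and an adjusted p of 0.067. Pgd, which makes the other NADPH, was at -0.14 (SE 0.118, adjusted p = 0.462). The 4 genes of this branch were split in sign, 2 to each side.

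Of the non-oxidative branch, which passes sugars back to glycolysis, Taldo1 alone passed. This transaldolase gene, on chromosome 7 from 141392160 to 141402976, was lower at -0.54 (SE 0.153, adjusted p = 0.00407), or 68.6% of the Vim+/+ level. Tkt, its transketolase partner, was at 0.04 with an interval from -0.21 to 0.28. The pentose isomerase gene Rpia was at 0.36 with an unadjusted p of 0.0173 and an adjusted p of 0.0785, and the epimerase gene Rpe at -0.01. The call of Taldo1 was lost when the fold changes were centred on genes of like length (-0.40, adjusted p = 0.0631).

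In glycogen metabolism, the 2 genes that passed act at the start of a glycogen particle and at the exchange of glucose phosphates. Gyg, whose glycogenin primes a new particle, was lower in unstimulated Vim-/- cells at -0.62 (SE 0.171, adjusted p = 0.00358). Pgm2 was lower at -0.73 (SE 0.143, adjusted p = 9.94e-06), at 60.2% of the Vim+/+ level. The symbols Pgm1 and Pgm2 were exchanged in the mouse nomenclature, so it is uncertain which of these phosphoglucomutase genes each row stands for, and the row listed as Pgm1 was at 0.17 with an interval from -0.16 to 0.51. Gys1, the glycogen synthase of most tissues, was at -0.34 (SE 0.191, adjusted p = 0.221). The branching enzyme gene Gbe1 was at 0.10 and Ugp2, which makes the glucose donor UDP-glucose, at -0.02. Of the phosphorylase genes that release glucose 1-phosphate, Pygl was at 0.25 (SE 0.164, adjusted p = 0.322) and Pygb at -0.19. Synthesis and breakdown each therefore had main enzyme genes, Gys1 and Pygl, that did not pass, with intervals from -0.71 to 0.04 and from -0.08 to 0.57.

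Hif1a, whose protein switches on many genes of glycolysis when oxygen is low, had a log2 fold change of 0.32 (SE 0.174, adjusted p = 0.204) in unstimulated cells. The bases before the start sites of these genes were searched for the core of the element that HIF proteins bind, ACGTG or GCGTG on either strand. In the 250 bases before the RefSeq start of 1 transcript of each gene, on GRCm38.p6, the core was found in 27 of 38 members (71.1%), against 55.9% of 9778 genes of the tables and 38.6% of all 27025 promoters of the same length. It was held by 8 of the 13 members that were lower in unstimulated Vim-/- cells (61.5%) and by 19 of the other 25 (76%), and this difference was not tested. A match of these letters is a description of the sequence and not a binding site. The E-box CACGTG contains ACGTG on both strands, and was found in 10.5% of members and 8.42% of the genes of the tables.

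For 14 of the 38 members these bases reach into the annotated span of the gene, which can begin at another transcript. The sequences of the adjacent pair Fbp2 and Fbp1 and of Pgk1, which was lower too, are shown because these genes bear on the results above. Each is printed 5′ to 3′ on the strand of the gene, with the core in capitals. They lie at chr13:62858401-62858650 (minus strand), chr13:62888283-62888532 (minus strand) and chrX:106186850-106187099 (plus strand). The Fbp1 stretch reaches a few bases into the annotated span of the gene, since the start used is that of 1 of its transcripts.
Fbp2: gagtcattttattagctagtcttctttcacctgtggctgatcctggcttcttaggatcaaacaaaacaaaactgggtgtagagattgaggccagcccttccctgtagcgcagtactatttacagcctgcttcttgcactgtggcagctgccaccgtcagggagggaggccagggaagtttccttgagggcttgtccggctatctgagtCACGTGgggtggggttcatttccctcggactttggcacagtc
Fbp1: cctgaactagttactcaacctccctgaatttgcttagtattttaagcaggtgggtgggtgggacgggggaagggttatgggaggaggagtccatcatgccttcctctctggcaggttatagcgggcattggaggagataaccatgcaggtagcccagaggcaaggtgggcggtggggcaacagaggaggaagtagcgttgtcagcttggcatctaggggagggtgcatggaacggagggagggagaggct
Pgk1: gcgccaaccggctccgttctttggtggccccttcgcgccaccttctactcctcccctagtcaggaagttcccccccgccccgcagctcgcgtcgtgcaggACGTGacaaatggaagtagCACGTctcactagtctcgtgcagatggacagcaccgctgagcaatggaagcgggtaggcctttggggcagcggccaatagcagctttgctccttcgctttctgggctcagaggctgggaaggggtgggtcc

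Fbp2 has an E-box, Pgk1 holds 2 copies of the core and Fbp1 none.

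After 1 h of LPS the same members differed between genotypes, with 1 added. Of the 38 members 14 were lower in Vim-/- cells and 1 was higher, in a comparison in which 4.27% of all genes passed as lower, 6.55% as higher and 10.8% in either direction, while 23.7% of the 818 genes with high counts passed in either direction and 15.9% as lower. An unadjusted p under 0.05 was found for 17 members and for 22.1% of all genes. All 14 members that had passed in unstimulated cells passed again with the same sign, and the added gene was Pfkfb3. The comparisons do not share libraries, but they come from 1 fit, and the replicates carry the same numbers in both. The median log2 fold change was -0.46 for glycolysis, 0.05 for the pentose phosphate pathway and -0.20 for glycogen.

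In LPS-treated cells Pkm was again the member with the smallest adjusted p, at -0.83 (SE 0.117, adjusted p = 1.81e-10), and Tpi1 was at -0.82 (SE 0.169, adjusted p = 5.12e-05). Fbp1 was at -1.54 (SE 0.249, adjusted p = 6.65e-08), within 0.02 of its value in unstimulated cells, and Fbp2 was listed at -9.21 (SE 1.80, adjusted p = 1.48e-05). Aldoa was lower at -0.48 (SE 0.129, adjusted p = 0.00463), Gpi1 at -0.37 (SE 0.116, adjusted p = 0.0199) and Pfkp at -0.44 (SE 0.137, adjusted p = 0.0185). In the lower part of the pathway Pgk1 was lower at -0.52 (SE 0.135, adjusted p = 0.00239), Eno1 at -0.47 (SE 0.117, adjusted p = 0.00135) and Gapdh at -0.46 (SE 0.162, adjusted p = 0.045). Gapdh lay close to the threshold, and its call was lost when the fold changes were centred on genes of like principal transcript length, with a fold change of -0.40 (adjusted p = 0.0967). Pgam1 was at -0.02 and Ldha at -0.04 (SE 0.139, adjusted p = 0.908).

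Pfkfb4 was again the 1 higher member after LPS, at 0.53 (SE 0.151, adjusted p = 0.00774), a call that was lost with centring on genes of like principal transcript length (0.41, adjusted p = 0.0598) and with the rescaled statistics (adjusted p = 0.380). Pfkfb3 was now lower at -0.71 (SE 0.137, adjusted p = 1.14e-05). Its gene lies on chromosome 2 from 11471430 to 11554071, and its RNA was at 61.2% of the Vim+/+ level after LPS. Hk2 was at -0.48 (SE 0.183, adjusted p = 0.0686), Hk3 at 0.06 (SE 0.148, adjusted p = 0.874), Hk1 at -0.06 and Pfkl at -0.22 (SE 0.233, adjusted p = 0.662). Hk2 thus missed the threshold, though it passed with the fold changes centred on well-counted genes (adjusted p = 0.049) and on genes of like length (adjusted p = 0.0184). Pfkm was at -0.34, Bpgm at -0.16 and Aldoc at -3.73, with an interval from -6.49 to -0.96 and an adjusted p of 0.0668.

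In the pentose phosphate pathway Taldo1 was lower after LPS at -0.45 (SE 0.153, adjusted p = 0.0347), a call that was lost with centring on genes of like length, at -0.39 (adjusted p = 0.0868). G6pdx was at 0.14 (SE 0.128, adjusted p = 0.571) and Pgd at -0.11 (SE 0.118, adjusted p = 0.663), while H6pd was at 0.28, Pgls at -0.02, Rpia at 0.25, Rpe at 0.00 and Tkt at 0.10. Of the glycogen genes Gyg was lower at -0.64 (SE 0.171, adjusted p = 0.00391) and Pgm2 at -0.58 (SE 0.142, adjusted p = 0.00117). Gys1 was at -0.34 (SE 0.191, adjusted p = 0.288), Pygl at 0.06 (SE 0.164, adjusted p = 0.892), Pygb at 0.23, Gbe1 at -0.29, Pgm1 at 0.14 and Ugp2 at -0.12, and none of these passed. Hif1a was at -0.10 (SE 0.173, adjusted p = 0.817).

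LPS itself was not followed within 1 h by a change that passed in any of these genes. None of the 38 members passed in Vim+/+ or in Vim-/- neutrophils by the deposited DESeq2 test, where 2.17% and 2.08% of all genes passed, and 4 and 3 members had an unadjusted p under 0.05, as had 11.7% and 7.23% of all genes. For 29 members in Vim+/+ and 33 in Vim-/- cells the 95% confidence interval excluded a change of 1.5-fold or more. A 2-fold change lay outside the interval for 36 members in each genotype, and Aldoc and Fbp2, whose intervals were wide, were the exceptions. In Vim+/+ cells the 4 genes with an unadjusted p under 0.05 were Pgam1 at -0.36 (adjusted p = 0.194), Hif1a at 0.44 (adjusted p = 0.263), Pgls at -0.45 (adjusted p = 0.291) and Pfkfb3 at 0.29 (adjusted p = 0.419). In Vim-/- cells they were Pgam1 at -0.26 (adjusted p = 0.473), Pfkfb4 at -0.29 (adjusted p = 0.526) and G6pdx at -0.23 (adjusted p = 0.652). Pgam1 was thus the 1 gene with a lower value at this level in both genotypes.

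**Figure D4:**
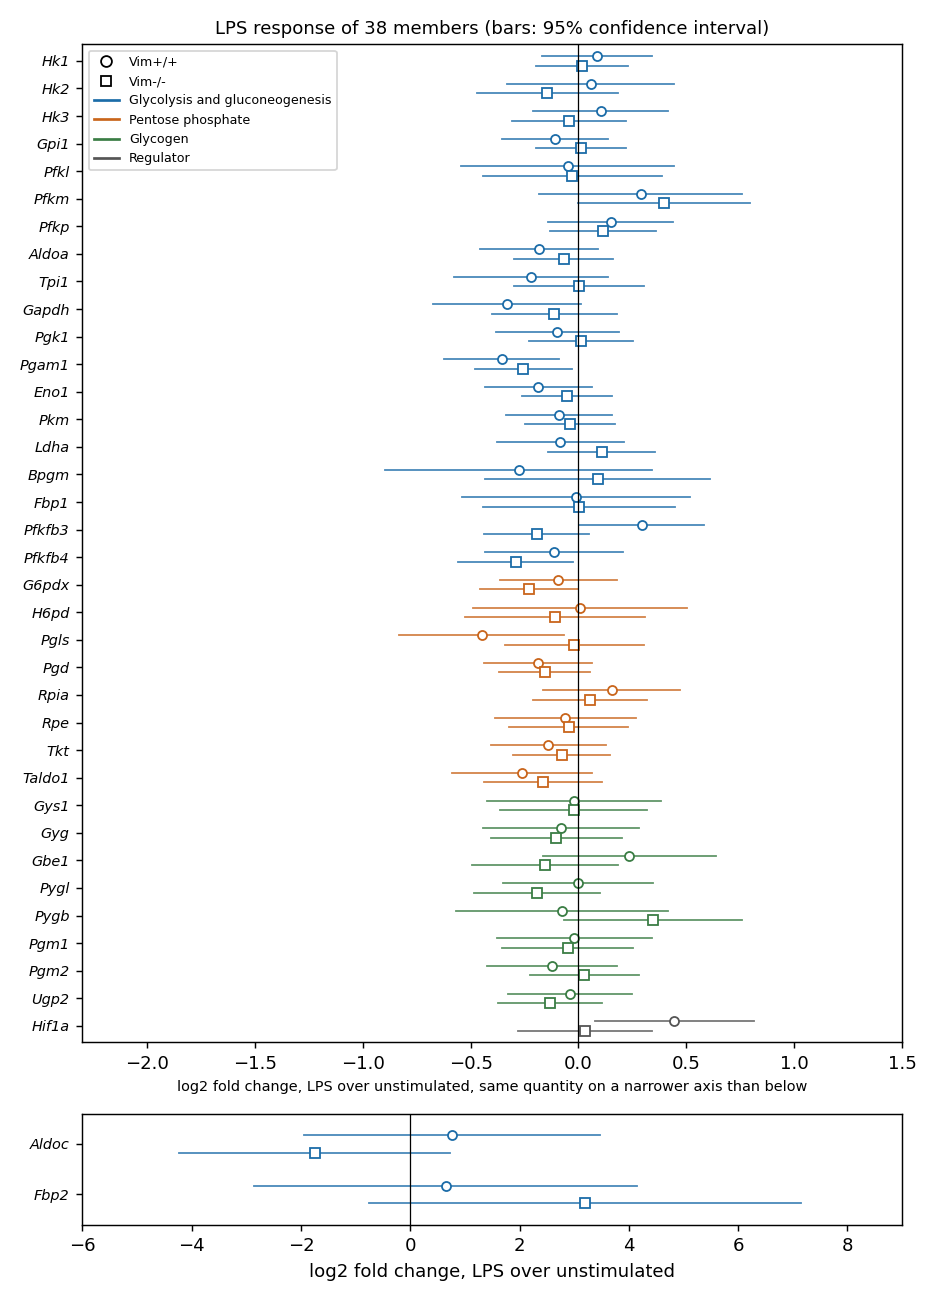
Log2 fold change of LPS over unstimulated for each member in Vim+/+ (circles) and Vim-/- (squares) neutrophils, with 95% confidence intervals as bars, and with Aldoc and Fbp2 on a wider axis in the lower panel. No member passed, so all symbols are open, and most lie within 0.5 of 0.

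Of the genes with high levels or a regulated step, Pkm was at -0.09 with an interval from -0.34 to 0.16 in Vim+/+ cells and at -0.04 in Vim-/- cells, Hk3 at 0.10 and -0.04, and Pfkl at -0.05 and -0.03, with an interval for Pfkl from -0.54 to 0.44 in Vim+/+ cells. Ldha was at -0.08 in Vim+/+ and 0.11 in Vim-/- cells, and Hk2 at 0.06 and -0.14. Of the NADPH-producing steps, G6pdx was at -0.09 in Vim+/+ and -0.23 in Vim-/- cells and Pgd at -0.19 and -0.16. Among the glycogen genes Pygl was at 0.00 and -0.19 and Gys1 at -0.02 in both. Of the other genes in these pathways, Gapdh was at -0.33 in Vim+/+ and -0.11 in Vim-/- cells and Taldo1 at -0.26 and -0.16.

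The response to LPS was not shown to differ between genotypes for any member. The difference of the responses, Vim-/- minus Vim+/+, was put to a normal test, two-sided, with the squared standard errors of the responses summed as its variance. Of 38 members 0 passed, against 10 of 13091 genes (0.0764%). Pfkfb3 was the 1 member with an unadjusted p under 0.05, a level reached by 6.04% of all genes. Its response was 0.29 (SE 0.148) in Vim+/+ and -0.19 (SE 0.124) in Vim-/- cells, a difference of -0.49 (SE 0.193) with an interval from -0.87 to -0.11, a raw p of 0.0115 and an adjusted p of 0.690. Passing in LPS-treated but not in unstimulated cells therefore does not show that the genotype difference of Pfkfb3 depended on LPS. For Hif1a the responses were 0.44 and 0.03, a difference of -0.41 (SE 0.245, adjusted p = 0.894).

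The genes that were lower in Vim-/- cells had shorter transcripts. The median length of the longest transcript was 1922 bases for the 13 members lower in unstimulated cells, 3223 bases for the other 25 members and 3200 bases for 12046 genes of the tables with a length. Over all genes the fold change itself moved with length: genes as long as Fbp1 had a median log2 fold change of -0.17, and genes as long as Pfkp, at 8681 bases, had one of 0.47. Set against genes of like length, the unstimulated fold change of Tpi1 went from -1.04 to -0.84 and that of Aldoa from -0.59 to -0.42, while that of Gapdh went from -0.68 to -0.80 and that of Pfkp from -0.40 to -0.87. With this centring Hk2 (-0.56, adjusted p = 0.0227) and Pfkfb3 (-0.44, adjusted p = 0.0158) passed in unstimulated cells, and the other members that had passed, apart from Taldo1, kept their call, which made 15 members where 13.5% of all genes passed. After LPS 15 members passed with this centring, where 10.3% of all genes did. With the length of the principal transcript in its place, which is shorter for Aldoa and Gapdh, the fold change of Aldoa was -0.23 (adjusted p = 0.264). That of Gapdh was then -0.53 in unstimulated cells, nearer 0 than without centring, and it still passed.

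The calls also rested on the size of the deposited test statistics. In the unstimulated comparison their spread over all genes was 1.83 times that of a standard normal variable, and after LPS 1.5 times. When the statistics of all genes were centred and divided by this spread, 3 members passed in unstimulated cells (Tpi1, Pkm and Fbp1) and 5 after LPS (these, Fbp2 and Pfkfb3), all lower, with 1.44% and 2.22% of all genes. With a log2 fold change beyond 1 also required, Tpi1, Fbp1 and Fbp2 passed in unstimulated cells and Fbp1 and Fbp2 after LPS, with 7% and 5.22% of all genes. Tpi1, Pkm and Fbp1 passed under every alternative examined that kept no fold threshold.

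Genes next to these pathways were counted in lists, to be read against the 18.4% of all genes that passed between genotypes in unstimulated cells and the 10.8% after LPS, or 37.7% and 23.7% of the genes with high counts. Of 8 transport genes 1 was higher and 2 were lower in unstimulated Vim-/- cells. Slc2a3, a high-affinity glucose carrier, was higher at 0.77 (adjusted p = 0.000907), and Slc2a6, a hexose carrier of lysosomes, and Bsg, the chaperone of the lactate carriers, were lower at -0.65 (adjusted p = 0.0118) and -0.70 (adjusted p = 6.00e-05). Slc2a6 was also the 1 gene of this list that rose with LPS, at 0.88 in Vim+/+ and 1.01 in Vim-/- cells. After LPS Slc16a1, a lactate carrier, was higher in Vim-/- cells at 0.97 (adjusted p = 0.00882), and Bsg was lower at -0.50.

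Of 11 further glycolysis genes, 5 were higher and 1, Eno1b, was lower in unstimulated Vim-/- cells, and 3 were higher after LPS. Adpgk, a glucokinase that spends ADP, was higher at 1.10 (SE 0.136, adjusted p = 9.29e-14) and 0.91 after LPS. Pfkfb2, another bifunctional enzyme of the Pfkfb family, was higher at 1.03 and 0.71, and Pgm2l1, which makes glucose 1,6-bisphosphate, at 0.96 and 0.69. The low-count genes Pfkfb1 and Galm were the others that were higher in unstimulated cells. Of 5 genes of glucose 6-phosphate release and 6 further pentose phosphate genes none passed between genotypes, with 0 and 0 at an unadjusted p under 0.05 in unstimulated cells and 2 and 1 after LPS. Of 14 further glycogen genes 1 passed in unstimulated cells, the low-count gene Ppp1r3e, which was higher. After LPS 2 were lower, among them Gaa, the acid glucosidase of lysosomes, at -0.45 (adjusted p = 0.0255).

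Of 8 further genes of the HIF pathway 3 passed in unstimulated cells. Arnt, the partner of HIF1A, was higher at 0.51 (adjusted p = 0.0191) and Epas1, which encodes HIF2A, at 4.39 (SE 1.07, adjusted p = 0.000624), whereas Egln3, a HIF prolyl hydroxylase, was lower at -0.58 (adjusted p = 0.0102). After LPS Epas1 was higher at 4.42 and Egln3 lower at -0.79. Of 14 HIF target genes outside the 3 pathways, 2 were higher and 3 lower in unstimulated cells, with Vegfa at 1.03 and Mxi1 at 0.46 on the higher side and Fam162a at -0.73, Ddit4 at -0.49 and P4ha1 at -0.45 on the lower. After LPS 1 was higher, Vegfa at 1.05, and 4 were lower, Ankrd37, Fam162a, Ero1l and Ddit4. The share of this list that passed was 35.7% in each state.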

How the data were processed

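PolyA RNA of the 10 libraries was sequenced, and the submitters' processing notes name cutadapt 4.4, STAR 2.7.10b, DESeq2 1.26.0 and the mm10 build. The authors estimated 4 covariates with RUVSeq and fitted DESeq2. In their deposited tables the signal is baseMean, a mean of normalized counts over libraries. The deposited log2 fold changes and standard errors, the Wald statistic (a score) and the p-values are those of that fit, and since the members are rows of these tables they were used as deposited. The tables hold 0 columns of values per sample that were left out. The signs of genotype comparisons were turned to Vim-/- over Vim+/+. Intervals of 95% and the difference of LPS responses (normal test, Benjamini-Hochberg adjustment) were computed with Python 3.11.15, numpy 2.4.6, scipy 1.17.1 and pandas 2.3.3, tested on simulated data, and plotted with matplotlib 3.10.9. The DESeq2 adjusted p had to be under 0.05, without a fold threshold. Alternatives were a fold threshold, rescaled Wald statistics, centring on well-counted genes or on 50 bins of transcript length (GENCODE M21), a baseMean minimum of 100 and another adjustment. Positions and promoters came from RefSeq on GRCm38.p6. The members and lists were chosen with earlier results of these data known. By rule every member was named, with full statistics where it passed or was a committed step, and other pathway genes only where they passed, while markers were given by list and Pf4 was named after its values were seen. The count model and the replicates left out in turn that were planned for counts per sample were not used here, as the tables hold comparisons. Some genes of the other lists, some that passed among them, are not reported here.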

Additional observations from a re-analysis of the deposited data

How the results depend on the processing

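With an absolute log2 fold change over 1 also required, 3 members passed between genotypes in unstimulated cells and 2 after LPS, in place of 14 and 15. With the Wald statistics centred and rescaled the counts were 3 and 5. Under the other alternatives they were 14 to 15 and 13 to 16, and no fold change of a member changed sign where it was called. Centring on genes of like principal transcript length was chosen after seeing the data. It removed the calls of Aldoa and Taldo1 in unstimulated cells and of Gapdh, Pfkfb4 (0.41, adjusted p = 0.0598) and Taldo1 after LPS. It added calls of Hk2 and Pfkfb3 in unstimulated cells and of Hk2 after LPS, all lower. Pgls passed in unstimulated cells when centred on well-counted genes (-0.51, adjusted p = 0.0335). With like principal transcript length the Pgls value was -0.12 and did not pass. The cause of these changes was not tested, apart from the construction of each alternative. The LPS responses and their difference held 0 members that passed under every alternative run. Leaving out replicates, TMM against size factors and a filter on counts were not run, because the tables hold no values per library. No paired analysis was possible because the tables carry comparisons and not replicates. The depth is unknown, and precision is carried by the standard errors alone.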
